A study of Saccharomyces cerevisiae with 26 samples.

Results

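Chromosome III of budding yeast (Saccharomyces cerevisiae) was followed along its whole length for early DNA replication in strains labelled as lacking FKH1, FKH2 or both, which encode Forkhead transcription factors. It was taken as all of its 1 kb windows, 317 of the 12079 windows of the genome, chosen by position and not by their values, and they cover 316600 bp. The series holds 26 libraries in 13 groups of 2, of which 10 carry BrdU-labelled DNA from 5 strains, 8 carry stranded RNA and 8 carry DNA bound by Rpb3, a subunit of RNA polymerase II. Chromosome III held 10 of the 389 BrdU peaks of the genome, and these are described from the left telomere to the right one.

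The strains of the BrdU libraries are labelled WT, fkh1Δ, fkh2Δ, fkh1Δfkh2Δ and fkh1Δfkh2Δ2C. The last 2 names are those of the strain tags. The titles of these libraries, and of the RNA and Rpb3 libraries tagged fkh1Δfkh2Δ2C, read fkh1Δfkh1Δ or fkh1Δfkh1Δ2C instead. The Δ marks a deleted gene, and the meaning of 2C was not given in the labels. Per the labels, all 10 cultures grew in YEPD at room temperature with α-factor for 4 hours and were then given hydroxyurea and BrdU for 1 hour. α-factor is the mating pheromone that holds a-type cells in G1, hydroxyurea starves replication forks of nucleotides, and BrdU is a thymidine analogue that marks new DNA. The RNA and Rpb3 libraries come from WT and fkh1Δfkh2Δ2C, in asynchronous growth or in G1 arrest. Per the labels, the G1 cultures had α-factor for 4 hours. The labels do not state whether the 2 libraries of a group came from separate cultures, and p-values therefore measure the spread between these libraries, which may be technical.

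Yeast chromosomes replicate from defined origins, which are licensed in G1 and then fire in a characteristic order during S phase. When forks stall in hydroxyurea, BrdU gathers around the origins that fired early and stays low around those that fire late or not at all. Fkh1 and Fkh2 are related transcription factors that bind DNA through a forkhead domain, drive genes of the G2/M phase of the cell cycle and are known to act on the timing of origins. Chromosome III carries the active mating-type locus MAT on its right arm, the silent cassettes HML and HMR near its left and right ends, and the recombination enhancer, a Fkh1-bound element beside KAR4 that directs MAT switching to HML. Origins near centromeres are known to replicate early.

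Signal is the authors' normalized value per 50 bp bin, on a scale without a stated unit, and the read depth behind it is unknown. Coordinates are as in the files, 1-based, with a genome build that was not given in the sources used here. Peaks were local maxima of a combined trace, which took at each bin the strain with the highest mean and was smoothed over 1000 bp. They had to reach 3 times the genome's median signal (2.7) and to lie 5000 bp or more from any higher maximum. Its value is the mean signal within 2500 bp of the centre. At 7 of the 10 peaks this mean reached the minimum of 8.1 in all 5 strains. Those at 125626, 262676 and 273026 had a lower mean in some strains and owe their place on the combined trace to the strains where they are high. Their values are therefore given as a description. Their peak tests enter the counts of called peaks, the figure of differences from WT and the alternatives. All 1 kb windows were tested, but the windows named at these peaks were picked for them and share that selection. Peak differences are on the scale log2(signal + 1.96) and window differences on log2(signal + 2.7), which understates changes at low signal. Errors are SD over n = 2 libraries for levels and SE from limma for differences.

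Some libraries stood apart from their labels or from their replicates. The library labelled fkh1Δfkh2Δ replicate 1 was matched over chromosome III by 0.504 times replicate 2 plus 0.503 times fkh1Δfkh2Δ2C replicate 1, leaving a residual of 0.874% of its size. The best pair of other libraries left 4.54% to 21.0% for each of the remaining 9. The called peak differences from WT given below for fkh1Δfkh2Δ, and its counts of called peaks and windows, are therefore also given without that library. Its single windows, runs of windows and counts by zone are given only with it. Tests that keep it treat it as a replicate of its own, which this match puts in doubt. The fkh1Δfkh2Δ2C replicates differed from each other by 27.4% to 30.01% over chromosome III, against 5.70% to 9.09% for the replicates of the other strains.

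The deleted genes were checked by their BrdU signal relative to the adjoining 1 kb on either side. FKH1 stood at 88.1% and 89.8% of its flanks in WT and at 65.4% and 68.7% in fkh1Δ. It stood at 79.9% and 83.9% in the libraries labelled fkh1Δfkh2Δ, nearer to WT than to fkh1Δ, and at 73.1% and 74.3% in those labelled fkh1Δfkh2Δ2C. Under both of these labels, however, little signal remained: 2.62 to 2.81 on FKH1 and 3.12 to 3.85 on its flanks. That is close to the genome median of 2.7, whereas FKH1 carried at least 19.9 in each WT library. With gene and flanks both so low, the ratio cannot tell whether FKH1 was deleted there. FKH2 stood at 103% in both WT libraries, at 43.5% and 40.9% in fkh2Δ, at 68.2% and 39.6% in the libraries labelled fkh1Δfkh2Δ, and at 96.8% and 62.4% in those labelled fkh1Δfkh2Δ2C. FKH2 was thus lower against its flanks in both fkh2Δ libraries than in every library labelled as a double mutant other than fkh1Δfkh2Δ replicate 2. The second fkh2Δ library carries fkh1Δ in its strain tag and was grouped by its title. Below, the libraries with fkh1Δ in their label are those grouped as fkh1Δ, fkh1Δfkh2Δ or fkh1Δfkh2Δ2C, which leaves this library out. Its FKH1 signal was 87.1% of the flanks, against 91.7% in the first. BAR1, which encodes the protease that degrades α-factor, had a BrdU signal of 2.56 in that library and of 0.006 to 0.0546 in the other 9. The 2 fkh2Δ libraries thus differed at a gene that is no target of the study, and every fkh2Δ value is a mean over both. Rpb3 on FKH1 was 35.1 and 39.0 in asynchronous WT against 2.26 and 1.32 in fkh1Δfkh2Δ2C, while Rpb3 on FKH2 was 33.7 and 38.5 against 39.7 and 36.0. RNA of FKH2 in G1 was 0.23 and 0.159 in WT against 0.579 and 1.34. By Rpb3 and RNA, FKH2 therefore did not look deleted in the libraries labelled fkh1Δfkh2Δ2C, while both BrdU libraries lay below WT. Whether that departs from the label cannot be told, since the meaning of 2C was not given and the titles of these libraries do not name FKH2. The strains labelled fkh1Δfkh2Δ and fkh1Δfkh2Δ2C are called the labelled double mutants, with that limit on every direction drawn from the second. BrdU signal is smooth, with a median step between neighbouring bins of 0.121% to 0.248% of their mean over the 10 libraries, so neighbouring windows are not independent and a gap the size of a gene is filled in part by its flanks.

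Chromosome III was heavily labelled in every strain. Its mean BrdU signal was 14.5 to 18.0 over the 10 libraries, against a genome mean of 9.84 to 9.86. It ranked 1 of 16 chromosomes in 8 libraries and 2 in both fkh1Δfkh2Δ2C libraries. It held 3.85% to 4.79% of the genome's signal on 2.62% of the bins. The share of its windows above 3 times the genome median was 26.5% to 34.1%, against 21.3% to 22.3% over the genome.

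**Figure D1:**
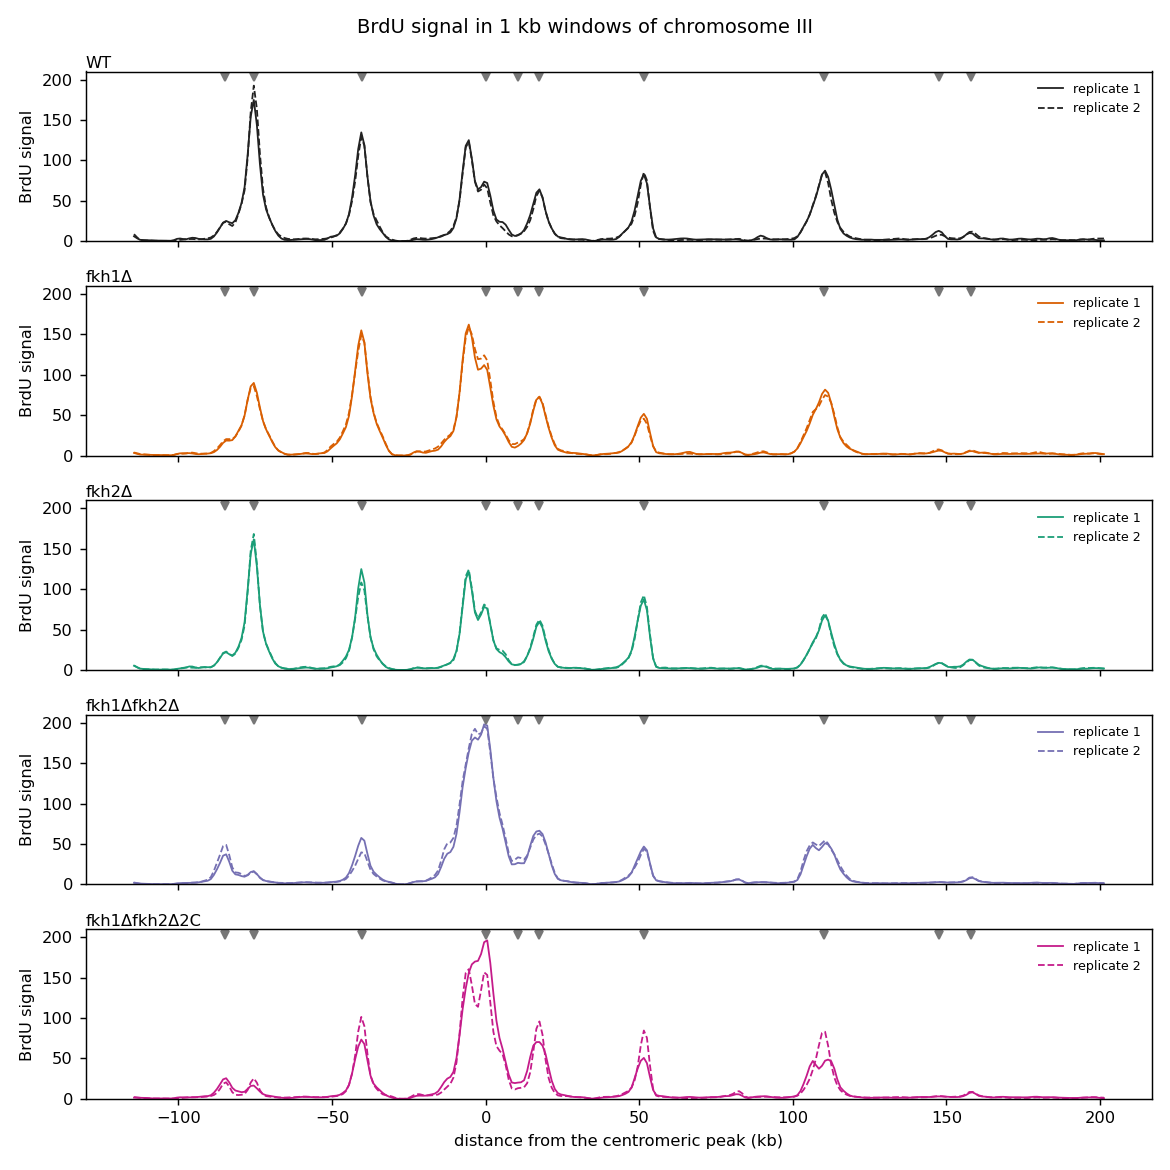
BrdU signal in 1 kb windows of chromosome III for each strain (y axis, normalized signal; x axis, distance in kb from the peak beside the centromere), with replicate 1 as a solid and replicate 2 as a dashed line and triangles at the 10 peaks. In WT the highest peak lies on the left arm (175 and 193 in its highest window), and in fkh1Δfkh2Δ it lies at the centromere (198 and 196).

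In WT the peaks fell into a strong and a weak set. The strongest, centred at 39476 between APA1 and YCL049C, had 134 and 145. It was followed by those at 74626 (105 and 101), 225226 (76.1 and 72.5), 166476 (65.3 and 63.5), 114976 (64.3 and 58.9) and 132276 (52.3 and 49.4). The peak at 30176 had 21.3 and 20.2, and those at 125626, 273026 and 262676 stayed between 6.63 and 9.58. The WT libraries of neighbouring ranks overlapped for the pair at 166476 and 114976 and among the 3 weakest, so the order within those was not resolved. A WT maximum at 109226 was not a peak of the combined trace and has no rank here. Its smoothed height was 126 and 124, against 134 and 129 at 74626 and 87.4 and 86.3 at 225226.

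The centres of 9 of the 10 peaks lay outside placed genes, where 30.8% of the chromosome's bins lie. Of these, 7 lay between genes read in the same direction and 2 between genes read away from each other. None lay between genes that converge. The exception, at 132276, lay inside ADY2, which encodes an acetate transporter.

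The left arm lost its strongest peak in the labelled double mutants. At 39476, 700 bp from APA1 (a diadenosine tetraphosphate phosphorylase) and 350 bp from YCL049C, the signal was 134 and 145 in WT, 122 and 124 in fkh2Δ, 76.1 and 73.8 in fkh1Δ, 12.9 and 12.4 in fkh1Δfkh2Δ and 13.3 and 17.3 in fkh1Δfkh2Δ2C. The libraries of no strain overlapped those of another, though the labelled double mutants nearly met. Relative to the WT mean, the peak stood at 53.7% in fkh1Δ, 88.3% in fkh2Δ, 9.05% in fkh1Δfkh2Δ and 10.9% in fkh1Δfkh2Δ2C. By limma, it fell by 0.88 ± 0.13 (log2 ± SE) in fkh1Δ (adjusted p = 0.000216), by 3.28 in fkh1Δfkh2Δ (adjusted p = 1.69e-09) and by 3.05 in fkh1Δfkh2Δ2C (adjusted p = 4.44e-09). The fkh2Δ difference of -0.18 did not pass (limma adjusted p = 0.51). Without the library labelled fkh1Δfkh2Δ replicate 1 the difference in that strain was -3.30. Among the 389 peaks of the genome it ranked 11 from the lowest in fkh1Δfkh2Δ, 9 in fkh1Δfkh2Δ2C and 43 in fkh1Δ.

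Its width at mid-height was 4.55 and 4.35 kb in WT, 4.4 and 4.15 kb in fkh2Δ and 6.1 and 6.4 kb in fkh1Δ. In fkh1Δfkh2Δ the signal fell to 5.45 and 5.26 in the window at 42001. It was still 9.44 and 10.5 at 36001, towards the peak at 30176, which was taller in that strain. The same measure ran to 15.65 and 16.2 kb there and takes in that neighbour, so it is not a width of this peak alone. In fkh1Δfkh2Δ2C, with summits of 16.6 and 25.3, the measure was 5.4 and 3.6 kb. The windows lower than in WT stretched from 37001 to 43000 in fkh1Δ, from 33001 to 49000 in fkh1Δfkh2Δ and from 32001 to 49000 in fkh1Δfkh2Δ2C, the last 2 reaching PDI1, the gene of protein disulfide isomerase. These comparisons share the WT libraries.

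The neighbouring peak at 30176 lay between KAR4, a transcription factor of the pheromone response, and RDT1, a small gene beside the recombination enhancer. Its signal was 21.3 and 20.2 in WT, 15.7 and 17.5 in fkh1Δ, 18.4 and 18.7 in fkh2Δ, 29.2 and 38.8 in fkh1Δfkh2Δ and 20.3 and 15.01 in fkh1Δfkh2Δ2C. Both fkh1Δfkh2Δ libraries were above all of the others. The rise of 0.65 ± 0.18 passed limma's test (adjusted p = 0.0048), with 0.84 without the library labelled fkh1Δfkh2Δ replicate 1 (limma adjusted p = 0.0032). It did not pass without replicate 2 (0.46, limma adjusted p = 0.065) or when the mean was taken within 5000 bp (0.28, limma adjusted p = 0.14). In WT this peak was a shoulder of its larger neighbour, with a mid-height width of 18.7 and 19.0 kb, and in fkh1Δfkh2Δ it stood alone with 4.75 and 4.85 kb. The run of higher windows in fkh1Δfkh2Δ reached from 23001 to 32000, with KRR1, ADF1, PRD1, PEX34, KAR4, RDT1 and SPB1 among its genes.

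The other strong left-arm peak, at 74626 between HBN1 and FRM2 (a pair of genes for nitroreductase-like proteins), had 105 and 101 in WT and 127 and 125 in fkh1Δ. It had 93.1 and 85.1 in fkh2Δ, 46.3 and 32.2 in fkh1Δfkh2Δ and 60.1 and 76.4 in fkh1Δfkh2Δ2C. Both labelled double mutants were below every library of the other strains. The peak fell by 1.37 ± 0.16 in fkh1Δfkh2Δ (limma adjusted p = 6.9e-06), by 1.62 without the library labelled replicate 1, and by 0.59 in fkh1Δfkh2Δ2C (limma adjusted p = 0.00425). In fkh1Δ the difference of 0.28 did not pass at the peak (limma adjusted p = 0.14). Its slopes were higher, however. Windows from 63001 to 72000, which hold HIS4, BIK1 and FUS1, rose with a median of 0.74, and windows from 77001 to 84000, which hold AGP1 and KCC4, rose with a median of 0.73. The width at mid-height was 5.65 and 5.95 kb in fkh1Δ, against 4.85 and 4.75 kb in WT.

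**Figure D2:**
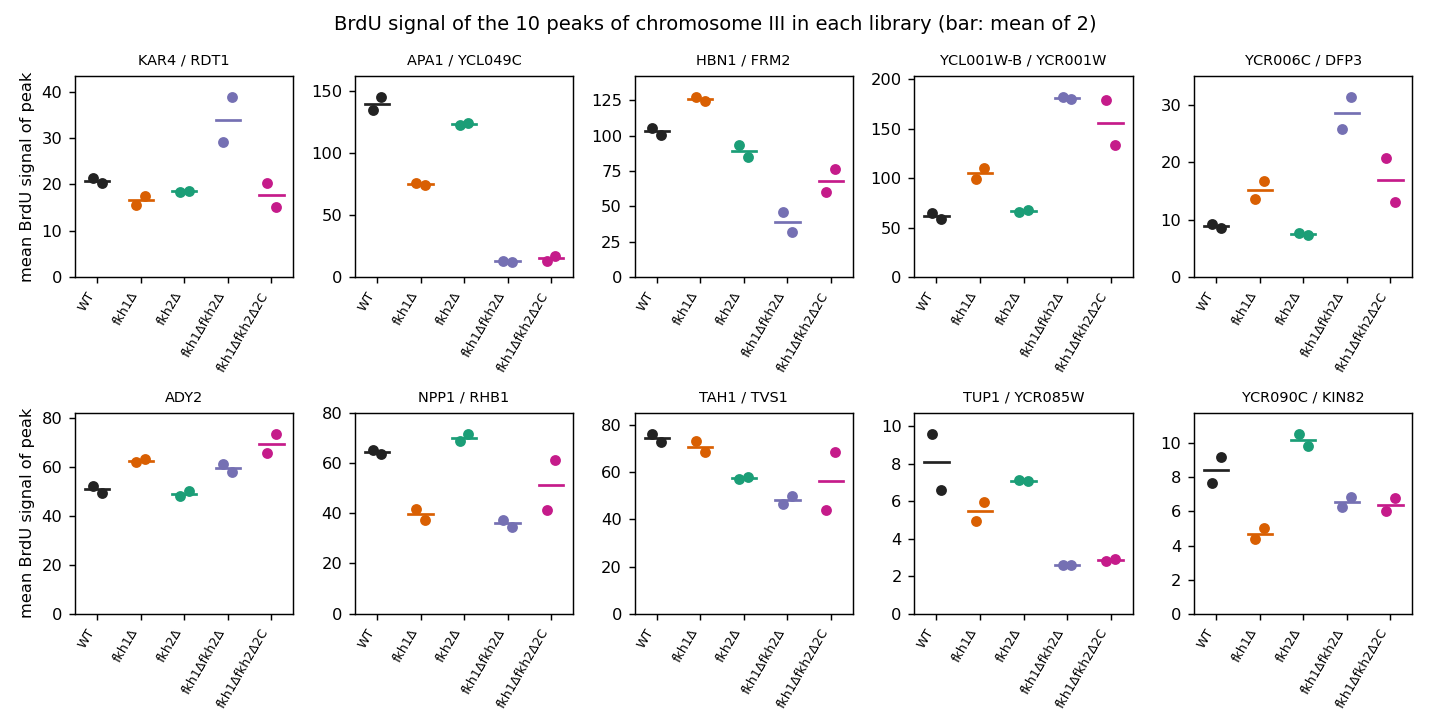
Mean BrdU signal of each of the 10 peaks (y axis, normalized signal, from 0, own scale per panel) in each of the 10 libraries (points), by strain on the x axis, with a bar at the mean of 2 libraries; panels are named by the genes beside the peak. The peak between APA1 and YCL049C drops from 134 and 145 in WT to 12.9 and 12.4 in fkh1Δfkh2Δ, and the one between YCL001W-B and YCR001W goes from 64.3 and 58.9 to 182 and 180.1.

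The centromere region gained signal in the same strains. The names of the genes change from the YCL series of the left arm to the YCR series of the right arm on either side of the peak at 114976, between YCL001W-B and YCR001W. The signal there was 64.3 and 58.9 in WT, 66.2 and 67.8 in fkh2Δ, 99.2 and 110.2 in fkh1Δ, 182 and 180.1 in fkh1Δfkh2Δ and 179 and 133 in fkh1Δfkh2Δ2C. All 6 libraries with fkh1Δ in their label were above the other 4. The peak rose by 0.75 ± 0.12 in fkh1Δ (limma adjusted p = 0.000502), by 1.52 in fkh1Δfkh2Δ (limma adjusted p = 5.04e-07) and by 1.30 in fkh1Δfkh2Δ2C (limma adjusted p = 2.12e-06). Without the library labelled fkh1Δfkh2Δ replicate 1 the value in that strain was again 1.52. With both first libraries of the labelled double mutants left out, an alternative added after the data were seen, fkh1Δfkh2Δ2C had 1.09.

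In WT the centromere zone held a separate, higher maximum. It lay at 109226 inside PGS1, a gene of mitochondrial phospholipid synthesis, with a smoothed height of 126 and 124, and no separate maximum stood there in either fkh1Δfkh2Δ library or in fkh1Δfkh2Δ2C replicate 1. The window at 109001 had 125 and 123 in WT, 162 and 159 in fkh1Δ, 122 and 124 in fkh2Δ, 164 and 169 in fkh1Δfkh2Δ and 156 and 161 in fkh1Δfkh2Δ2C. The trough at 112001, in RER1, rose further, from 63.9 and 61.4 in WT to 106 and 119 in fkh1Δ and 179 and 186 in fkh1Δfkh2Δ. By limma the log2 differences in fkh1Δfkh2Δ were 0.42 at 109001 (adjusted p = 0.0034), 1.504 at 112001 (adjusted p = 0.00024) and 1.42 at 114001 (adjusted p = 4.33e-05). The highest bin of the chromosome lay at 39426 in both WT libraries, at 109226 and 109726 in fkh1Δ, and at 115076 and 115026 in fkh1Δfkh2Δ.

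The increase reached well past the peak itself. The run of higher windows was 101001 to 121000 in fkh1Δ, 95001 to 131000 in fkh1Δfkh2Δ and 101001 to 127000 in fkh1Δfkh2Δ2C. The largest window changes in fkh1Δfkh2Δ were in GBP2, which encodes a poly(A) RNA-binding protein, at 102001 (8.56 and 9.55 in WT, 37.9 and 50.8 in the mutant, log2 difference 1.99, limma adjusted p = 0.000168), in BUD3, which marks the axial bud site, at 101001 (1.97), and over the septin gene CDC10 at 118001 (1.94). GBP2 and BUD3 also led the windows that rose in fkh1Δ, with 1.07 and 1.03. In fkh1Δfkh2Δ2C the largest rises were in CDC10 and MRPL32 at 118001 (1.54), MRPL32 and YCP4 at 119001 (1.52) and YCP4 and CIT2, the gene of peroxisomal citrate synthase, at 120001 (1.46).

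**Figure D3:**
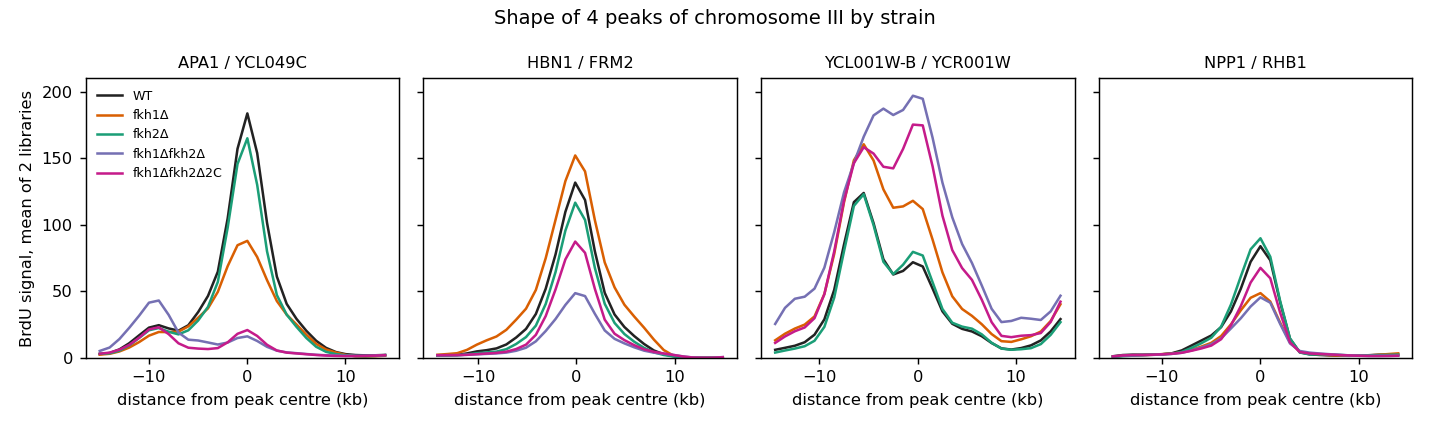
Mean BrdU signal of 2 libraries (y axis) in 1 kb windows around 4 peaks (x axis, distance from the peak centre in kb), with a line for each strain. The peak between APA1 and YCL049C is flattened in both labelled double mutants, the slopes of the one between HBN1 and FRM2 are highest in fkh1Δ, and the trough left of the centromeric peak, 62.6 in WT, fills to 182 in fkh1Δfkh2Δ.

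Between the centromere and the right arm, the small peak at 125626, between YCR006C and DFP3, had 9.17 and 8.49 in WT, 13.6 and 16.7 in fkh1Δ, 7.74 and 7.37 in fkh2Δ, 25.8 and 31.3 in fkh1Δfkh2Δ and 20.8 and 13.1 in fkh1Δfkh2Δ2C. It lies in the trough between larger peaks, and in 9 of the 10 libraries the signal within 2500 bp was highest at the edge towards ADY2. Local maxima of the smoothed signal were found there in both fkh1Δfkh2Δ libraries, at 125626 (26.7) and 125676 (33.6), and in no other library. Only in replicate 2 was that maximum also the highest point within 2500 bp. In the window at 125001, in DFP3, WT had 7.11 and 7.51, fkh1Δfkh2Δ 26.7 and 33.5, and fkh1Δfkh2Δ2C 20.1 and 13.1. By limma its log2 differences were 1.70 in fkh1Δfkh2Δ (adjusted p = 0.00025), 0.92 in fkh1Δfkh2Δ2C (adjusted p = 0.0076) and 0.72 in fkh1Δ (adjusted p = 0.046). The window was picked at a peak placed where fkh1Δfkh2Δ was highest, so these p-values give no independent support for a rise.

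The peak inside ADY2 at 132276 differed least among the strong peaks. Its signal was 52.3 and 49.4 in WT, 61.8 and 63.1 in fkh1Δ, 48.0 and 50.4 in fkh2Δ, 61.4 and 57.8 in fkh1Δfkh2Δ and 65.7 and 73.5 in fkh1Δfkh2Δ2C. The 6 libraries with fkh1Δ in their label were all above the other 4. It rose by 0.44 ± 0.10 in fkh1Δfkh2Δ2C (limma adjusted p = 0.00215) and by 0.29 in fkh1Δ (limma adjusted p = 0.035), while 0.22 in fkh1Δfkh2Δ did not pass (limma adjusted p = 0.066). The fkh1Δ call was lost whenever a WT or fkh1Δ library was left out (limma adjusted p = 0.057 to 0.17). The fkh1Δfkh2Δ2C call was lost when libraries were centred on their median peak (0.18, limma adjusted p = 0.10).

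On the right arm, the peak at 166476 lay between NPP1, a nucleotide pyrophosphatase, and RHB1, a small GTPase. Its signal was 65.3 and 63.5 in WT, 41.6 and 37.4 in fkh1Δ, 68.6 and 71.5 in fkh2Δ, 37.4 and 34.6 in fkh1Δfkh2Δ and 41.2 and 61.1 in fkh1Δfkh2Δ2C. All libraries with fkh1Δ in their label were below the other 4, with fkh1Δfkh2Δ2C replicate 2 nearest to WT. It fell by 0.68 ± 0.16 in fkh1Δ (limma adjusted p = 0.00414) and by 0.81 in fkh1Δfkh2Δ (limma adjusted p = 0.000532; 0.86 without the library labelled replicate 1). The value of -0.35 in fkh1Δfkh2Δ2C did not pass (limma adjusted p = 0.0595) and stood at -0.62 without replicate 2 of that strain. Lower windows spanned 159001 to 169000 in fkh1Δ, 158001 to 170000 in fkh1Δfkh2Δ and 158001 to 165000 in fkh1Δfkh2Δ2C.

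The broad peak at 225226 lay between TAH1, which encodes an Hsp90 cofactor, and TVS1. Its signal was 76.1 and 72.5 in WT, 73.1 and 68.4 in fkh1Δ, 56.9 and 57.9 in fkh2Δ, 46.7 and 49.7 in fkh1Δfkh2Δ and 43.7 and 68.6 in fkh1Δfkh2Δ2C. It fell by 0.61 ± 0.16 in fkh1Δfkh2Δ (limma adjusted p = 0.005), and by 0.56 without the library labelled replicate 1. The fall of 0.42 in fkh1Δfkh2Δ2C (limma adjusted p = 0.032) did not pass without WT replicate 1 (-0.39), without WT replicate 2 (-0.46) or without fkh1Δfkh2Δ2C replicate 1 (-0.11). In fkh1Δ the summit was close to WT, at -0.07 (limma adjusted p = 0.76), but its width at mid-height was 8.35 and 9.5 kb against 7.05 and 6.55 kb in WT, and windows from 231001 to 236000 over RAD18 and SED4 rose. The fkh2Δ difference of -0.36 was rank 9 from the lowest of all peaks in that strain, without passing (limma adjusted p = 0.29).

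The rightmost peaks were weak in every strain. At 262676, between the divergent genes TUP1, a general transcriptional corepressor, and YCR085W, the signal was 9.58 and 6.63 in WT, 4.95 and 5.98 in fkh1Δ, 7.12 and 7.06 in fkh2Δ, 2.63 and 2.58 in fkh1Δfkh2Δ and 2.81 and 2.92 in fkh1Δfkh2Δ2C. The labelled double mutants were thus near the genome median of 2.7. WT alone had a mean of 8.1 or more, through its first library, while the smoothed summits of fkh2Δ were 8.90 and 8.89. The 7 windows from 258001 to 265000 fell in both strains, with medians of -0.83 in fkh1Δfkh2Δ and -0.77 in fkh1Δfkh2Δ2C. The largest change was at 262001, over TUP1 and YCR085W, with -1.20 (limma adjusted p = 0.00066) and -1.13 (limma adjusted p = 0.0012). In fkh1Δ that window did not pass (-0.43, limma adjusted p = 0.13). The windows were picked at a peak placed where WT was highest, so these p-values give no independent support for a fall.

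At 273026, between YCR090C and KIN82, a protein kinase gene read away from it, the signal was 7.64 and 9.21 in WT, 4.37 and 5.03 in fkh1Δ, 10.5 and 9.85 in fkh2Δ, 6.28 and 6.84 in fkh1Δfkh2Δ and 6.02 and 6.78 in fkh1Δfkh2Δ2C. Both fkh1Δ libraries were below all of the others. WT and fkh2Δ alone had a mean of 8.1 or more within 2500 bp. Smoothed summits reached 8.13 to 8.98 in the labelled double mutants. The 4 windows from 270001 to 274000 fell in fkh1Δ with a median of -0.64, and 3 of them, up to 273000, fell in both labelled double mutants. At 272001, over FIG2 and YCR090C, the log2 differences were -0.67 in fkh1Δ (limma adjusted p = 0.0045), -0.32 in fkh1Δfkh2Δ (limma adjusted p = 0.034) and -0.34 in fkh1Δfkh2Δ2C (limma adjusted p = 0.033). The windows were picked at a peak placed where fkh2Δ was highest and WT was high too, so these p-values give no independent support for a fall.

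**Figure D4:**
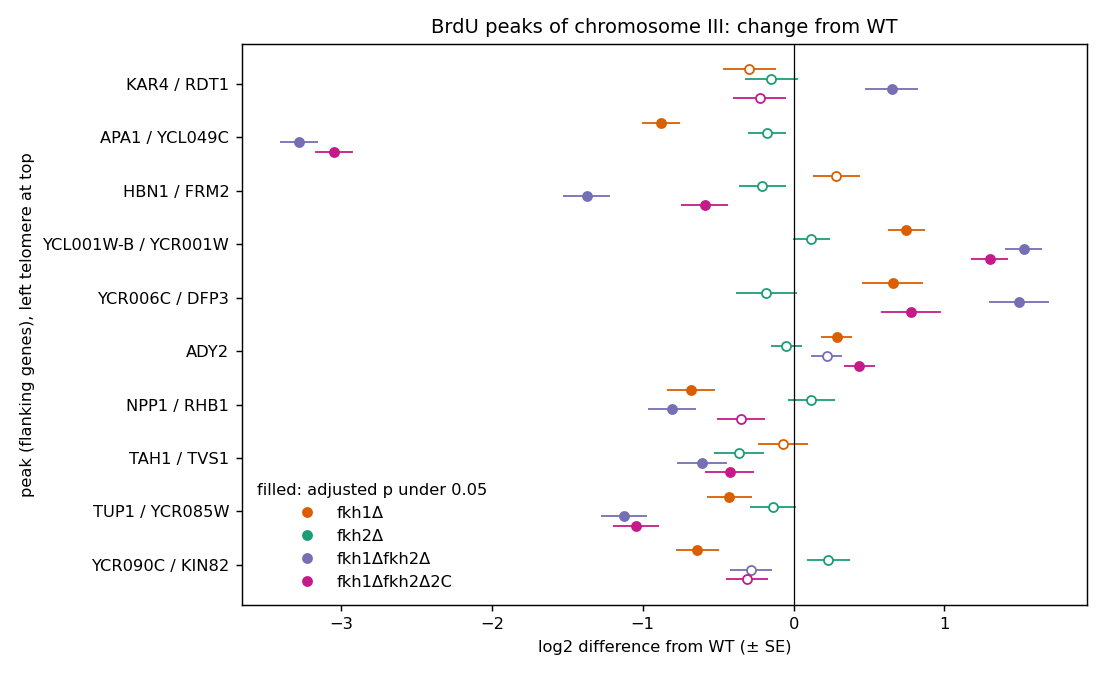
Log2 difference from WT of the 10 peaks (x axis, points with bars of ± SE from limma), by strain, ordered on the y axis from the left telomere at the top; filled points have a limma adjusted p under 0.05. The fkh2Δ points are all open and lie between -0.36 and 0.23, and the points of the labelled double mutants range from -3.28 to 1.52.

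Over all peaks of the chromosome, fkh1Δ had 3 higher and 4 lower than WT by limma, with 53.5% of the genome's peaks called (21.6% higher and 31.9% lower). With libraries centred on their median peak the split on chromosome III became 4 and 3. It became 1 and 3 without WT replicate 1 and also without fkh1Δ replicate 2. In fkh1Δfkh2Δ, 3 were higher and 5 lower, with 84.1% of the genome's peaks called (41.1% higher and 42.9% lower), and the counts were the same without the library labelled replicate 1. In fkh1Δfkh2Δ2C, 3 were higher and 4 lower, with 83.0% of the genome's called (45.8% higher and 37.3% lower), and the counts were again the same without both first libraries, although the peak at 30176 then fell (-0.42) and that at 225226 did not pass (-0.11). The median peak of the genome was 0.20 higher in fkh1Δfkh2Δ2C than in WT, and relative to the library median the split was 1 and 7, the 1 being the centromeric peak. These counts include the 3 peaks whose mean fell short of 8.1 in some strains. Over the 7 peaks whose mean reached 8.1 in every strain, 2 were higher and 2 lower in fkh1Δ, 2 and 4 in fkh1Δfkh2Δ, and 2 and 3 in fkh1Δfkh2Δ2C. They describe chromosome III and do not set it apart from the genome.

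In fkh2Δ no peak of the chromosome passed limma's test, where 0.0% of the genome's peaks did, and none had an unadjusted p under 0.05. All 10 log2 differences lay between -0.36 and 0.23, no peak or window passed without the second fkh2Δ library either, and the order of the peaks in fkh2Δ began with 39476 and 74626, as in WT. A miss of the threshold with 2 libraries does not show that the strains were alike.

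The balance between the strongest WT peak and the centromeric one turned over with the strain. The ratio of the centromeric peak to the one at 39476 was 0.478 and 0.407 in WT, 0.542 and 0.546 in fkh2Δ, 1.30 and 1.49 in fkh1Δ, 14.1 and 14.5 in fkh1Δfkh2Δ and 13.5 and 7.71 in fkh1Δfkh2Δ2C. No library with fkh1Δ in its label overlapped the other 4. The peak at 39476 took 24.7% and 27.1% of the summed signal of the 10 peaks in WT and 2.86% and 2.78% in fkh1Δfkh2Δ, while the centromeric peak went from 11.8% and 11.03% to 40.3% and 40.4%. The former was rank 1 in both WT and both fkh2Δ libraries, 3 in fkh1Δ and 8 in fkh1Δfkh2Δ, and the latter moved from rank 5 in WT to 2 in fkh1Δ and 1 in both labelled double mutants. These ranks, shares and ratios rest on the position 114976, where the labelled double mutants were highest, and leave out the WT maximum at 109226. At the WT maximum of the zone, the window at 109001 relative to that at 39001 was 0.715 and 0.638 in WT, 0.752 and 0.738 in fkh2Δ, 1.80 and 1.85 in fkh1Δ, 10.05 and 10.6 in fkh1Δfkh2Δ and 9.52 and 6.34 in fkh1Δfkh2Δ2C.

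In 1 kb windows, fkh1Δ had 53 higher and 23 lower on chromosome III, 24.0% of its windows, against 16.0% over the genome (7.44% higher and 8.56% lower). Chromosome IX had nearly the same share, 23.6%, and chromosome VI 21.4%. Leaving out fkh1Δ replicate 1 gave 18 higher and 8 lower, and leaving out replicate 2 gave 7 and 7. The called windows with the largest log2 differences were APA1 and YCL049C at 38001 to 41000 among those lower and GBP2, BUD3 and KCC4 among those higher. In fkh1Δfkh2Δ there were 63 higher and 71 lower, 42.3% against 43.0% over the genome (23.0% higher and 19.9% lower), with 50 and 51 without the library labelled replicate 1. In fkh1Δfkh2Δ2C there were 40 higher and 59 lower, 31.2% against 36.7% (19.6% higher and 17.1% lower). In fkh2Δ there were 0, against 0.0% over the genome, and 10 higher and 44 lower at an unadjusted p under 0.05, where 6.37% of all windows were higher and 6.23% lower.

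By zone, signal moved from the left arm to the centromere. The zones were set by position, with the HML end as the first 30 windows, the HMR end as the last 30, the centromere as 99001 to 129000, and the arms between them. The centromere zone held 23.2% and 22.2% of the chromosome's signal in WT, 24.5% and 25.0% in fkh2Δ, 31.7% and 32.7% in fkh1Δ, 53.2% and 54.6% in fkh1Δfkh2Δ and 50.9% and 43.6% in fkh1Δfkh2Δ2C. The left arm went from 38.2% and 40.1% in WT to 34.3% and 33.7% in fkh1Δ, 13.0% and 11.4% in fkh1Δfkh2Δ and 14.8% and 17.2% in fkh1Δfkh2Δ2C. The right arm held 29.97% to 36.7% in every library. Shares sum to the whole, so a gain in 1 zone lowers the others by construction.

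All 30 windows of the centromere zone were higher than WT in fkh1Δfkh2Δ, 26 in fkh1Δfkh2Δ2C and 22 in fkh1Δ, and none was lower. Over the genome 23.0%, 19.6% and 7.44% of windows were higher. The zone's median log2 differences were 1.49, 0.91 and 0.69, against -0.02, -0.01 and 0.00 over all windows of the genome. Of the 69 windows of the left arm, 6 were higher and 35 lower in fkh1Δfkh2Δ (8.70% and 50.7%, against the genome's 23.0% and 19.9%). In fkh1Δfkh2Δ2C 34 were lower (49.3%, against 17.1%). In fkh1Δ 19 were higher and 6 lower (27.5% and 8.70%, against 7.44% and 8.56%), the lower share being near the genome's. Of the 158 windows of the right arm, 20 were higher and 28 lower in fkh1Δfkh2Δ, or 12.7% and 17.7%, below the genome's 23.0% and 19.9%.

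**Figure D5:**
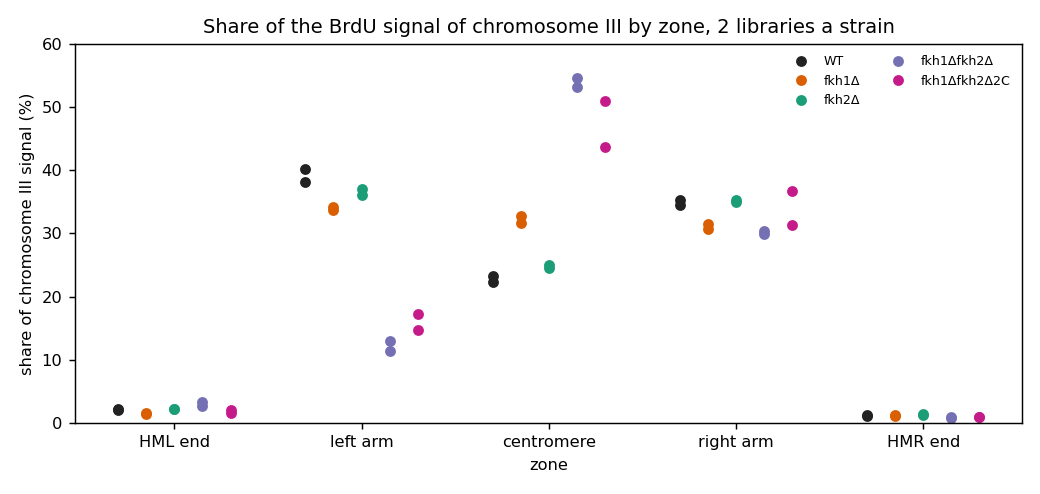
Share of the BrdU signal of chromosome III (y axis, %) in 5 zones set by position (x axis), with a point for each of 2 libraries per strain. The centromere zone goes from 23.2% and 22.2% in WT to 53.2% and 54.6% in fkh1Δfkh2Δ, the left arm from 38.2% and 40.1% to 13.0% and 11.4%, and neither end holds more than 3.27% in any library.

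The ends were little labelled. The HML end held 1.43% to 3.27% of the chromosome's signal and the HMR end 0.814% to 1.42% over the 10 libraries. At the HML end 7 windows were higher and 5 lower in fkh1Δfkh2Δ, the higher ones next to KAR4. These are 23.3% and 16.7% of its windows, near the genome's shares. The 2 windows at the left telomere, 1 to 2000, fell in 3 strains. At 1 to 1000 the signal was 5.92 and 8.54 in WT, 3.20 and 3.73 in fkh1Δ, 5.19 and 5.58 in fkh2Δ, 1.95 and 2.30 in fkh1Δfkh2Δ and 1.47 and 2.13 in fkh1Δfkh2Δ2C. By limma the log2 differences were -0.68 in fkh1Δ (adjusted p = 0.017), -1.03 in fkh1Δfkh2Δ (adjusted p = 0.00059) and -1.13 in fkh1Δfkh2Δ2C (adjusted p = 0.00047). At the HMR end no window was called in fkh1Δ, 3 were lower in fkh1Δfkh2Δ and 2 in fkh1Δfkh2Δ2C. The last 2 counts are 10% and 6.67% of its windows, below the genome's 19.9% and 17.1%.

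Signal at the mating-type loci was low in every strain. The cassettes share sequence, and how reads that match several places were counted is unknown, so a low value there cannot be told apart from unmapped reads and is not read as little replication. Mean signal over the annotated HML genes was 0.157 to 0.780 over the 10 libraries, and over the HMR genes 1.13 to 3.71, with the strains overlapping at both. At MAT it was 0.439 and 0.521 in WT, 0.776 and 0.784 in fkh1Δ, 0.577 and 0.541 in fkh2Δ, 1.66 and 1.63 in fkh1Δfkh2Δ and 1.11 and 1.70 in fkh1Δfkh2Δ2C. All of these were below the genome median of 2.7, and the libraries with fkh1Δ in their label were above the other 4. Windows of unshared genes around MAT also had low signal, with 1.65 to 2.67 at 202001 in TAF2. A low rise around MAT passed the test, with 11 windows from 191001 to 202000 higher in fkh1Δfkh2Δ (median 0.48) and 10 from 192001 in fkh1Δfkh2Δ2C (median 0.53). Its top was at 197001 between PHO87, a phosphate transporter, and BUD5, a regulator of bud site choice, where WT had 1.73 and 2.75, fkh1Δfkh2Δ 6.05 and 6.30, and fkh1Δfkh2Δ2C 5.52 and 9.43. A separate maximum at 197276 stood there in fkh1Δfkh2Δ2C replicate 2. The 2 windows from 87001 to 89000, inside the Ty2 retrotransposon gene YCL019W, were near 0 in every library.

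Beside fkh1Δ, the strain labelled fkh1Δfkh2Δ2C differed mainly on the left arm. By limma, 1 peak was higher and 3 were lower, with 72.8% of the genome's peaks called (47.6% higher and 25.2% lower). The peak at 39476 was lower by -2.17 ± 0.13 (limma adjusted p = 2.37e-07) and that at 74626 by -0.87 (limma adjusted p = 0.00043). The third was the weak peak at 262676, whose mean reached 8.1 in WT alone. The centromeric peak was higher by 0.55 (limma adjusted p = 0.0019), and this call was lost on centring (0.11, limma adjusted p = 0.59), where the split was 0 higher and 5 lower. Without both first libraries of the labelled double mutants the split was 3 and 3.

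In windows, fkh1Δfkh2Δ2C had 13 higher and 68 lower than fkh1Δ, 25.6% against 29.8% over the genome (16.6% higher and 13.2% lower). Leaving out fkh1Δ replicate 1 gave 4 and 46, and replicate 2 gave 5 and 41. The lower windows lay from 32001 to 49000 (median -2.06), from 62001 to 84000 (median -1.23) and from 227001 to 237000 (median -0.71), and the higher ones from 113001 to 122000 (median 0.68). Of the left arm's 69 windows, 39 were lower and none was higher.

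The labelled double mutants were also set against each other, a comparison added after the data were seen. The peak at 30176 was lower in fkh1Δfkh2Δ2C than in fkh1Δfkh2Δ by -0.87 ± 0.18 (limma adjusted p = 0.0133), and that at 74626 was higher by 0.78 (limma adjusted p = 0.0133). The other lower peak was the weak one at 125626, whose mean fell short of 8.1 in fkh2Δ. Of the genome's peaks, 16.5% were called (14.9% higher and 1.54% lower). No window of chromosome III passed, where 0.0166% of the genome's did, and 19 were higher and 47 lower at an unadjusted p under 0.05 (20.8%, against 13.1% of all windows). These counts rest on single libraries. Without fkh1Δfkh2Δ2C replicate 1 there were 19 higher and 47 lower windows and 5 higher and 3 lower peaks past the adjusted threshold, without the library labelled fkh1Δfkh2Δ replicate 1 there were 4 and 2 windows, and without either second library no peak passed.

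RNA polymerase and RNA of the genes of chromosome III were compared between fkh1Δfkh2Δ2C and WT. All 168 protein-coding genes of the reference were placed on the bins, of which 146 passed the filter on low values for Rpb3 and 143 for RNA. By limma no gene was called in either assay or stage, where 0.0% of the genome's genes were called for Rpb3 at both stages and for asynchronous RNA, and 0.0555% for RNA in G1 (0.037% higher and 0.0185% lower). At an unadjusted p under 0.05, Rpb3 was higher on 17 and lower on 34 genes in asynchronous cells (34.9%, against 23.5% over the genome), and higher on 6 and lower on 3 in G1 (6.16%, against 3.76%). RNA was higher for 3 and lower for 2 in asynchronous cells (3.50%, against 3.85%) and higher for 9 and lower for 5 in G1 (9.79%, against 7.87%). The difference between the stages was called for no gene (limma, smallest adjusted p = 0.41 for Rpb3).

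The asynchronous Rpb3 counts turned on the WT libraries. Without WT replicate 2, 32 genes were higher and 38 lower, and without WT replicate 1, 1 was higher and none lower. The WT libraries differed on metabolic genes. For GLK1, which encodes glucokinase, WT had 454 and 63.5 and fkh1Δfkh2Δ2C had 37.9 and 26.7. HIS4, of histidine synthesis, had 411 and 85.6 against 64.8 and 39.8, and CIT2 had 505 and 236 against 129.9 and 122. Of the 7 metabolic genes listed, 4 had an unadjusted p under 0.05, all lower, and none passed adjustment.

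The genes beside the BrdU peaks gave no call in either assay, with 16 of 20 tested for Rpb3 and 17 for RNA. APA1, beside the peak lost in the labelled double mutants, had Rpb3 of 46.6 and 60.7 in asynchronous WT and 53.1 and 53.9 in fkh1Δfkh2Δ2C, a log2 difference of 0.01 (limma adjusted p = 0.97). Its RNA in G1, the stage before the BrdU hour, stood at 1.97 and 2.16 in WT against 1.71 and 1.84 in fkh1Δfkh2Δ2C. YCL049C had Rpb3 of 58.8 and 54.1 against 53.6 and 53.6 in G1. YCL001W-B, beside the centromeric peak, had Rpb3 of 34.1 and 32.5 against 37.6 and 31.8 in G1, and RNA listed at 0 in both WT libraries. The strains overlapped for Rpb3 at APA1 and YCL001W-B, and did not overlap for RNA at APA1 or Rpb3 at YCL049C.

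KAR4 carried more Rpb3 in G1 than in asynchronous cells in both strains, with 212 and 218 in G1 WT and 202 and 208 in G1 fkh1Δfkh2Δ2C, against 45.1 and 65.0 and 65.9 and 76.1. Of the 5 pheromone and mating genes, FIG2, which encodes a cell wall adhesin, went further, with 641 and 740.0 in G1 WT against 26.6 and 30.04 in asynchronous WT. The strains did not differ past the threshold at any of the 5. Cells held with α-factor are a-type, and the a-cell receptor gene STE2 had Rpb3 of at least 186 in each of the 8 libraries, against 19.0 to 25.1 for the α-cell gene STE3. The other listed markers were less clear. The a-cell genes AGA2, MFA1, MFA2 and STE6 had at least 45.3, but ASG7 had 31.65 to 41.9 in asynchronous cells. BAR1 was listed at 0 for Rpb3 and for RNA in all 8 libraries of each. Its BrdU signal was also only 0.006 to 0.0546 outside the second fkh2Δ library, so its 0 is not read as a sign of mating type. Whether the gene is present in these strains was not tested. The α-cell genes MFALPHA1 and MFALPHA2 had 15.6 to 30.9, but SAG1 had 36.5 to 97.5, so the 2 sets overlapped. HMLALPHA1, MATALPHA1 and HMRA2 were listed at 0 for Rpb3 in all 8 libraries, below the α-cell gene STE3, and whether reads could map there was not tested. HMRA1 had 35.0 to 68.6, and a copy of the same sequence at MAT in a-type cells cannot be told apart from it, since the reference annotation carries the α genes at MAT.

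Of the 11 replication, repair and cell cycle genes, 10 were tested for Rpb3 and for RNA, and none was called. BUD3, in the windows that rose most beside the centromere, had RNA of 0.168 and 0.197 in G1 WT and 0.655 and 0.500 in fkh1Δfkh2Δ2C, a log2 difference of 1.37 (limma adjusted p = 0.395). Its Rpb3 in G1 was 24.4 and 26.03 against 33.1 and 34.0, a difference of 0.36 (limma adjusted p = 0.48). The strains did not overlap in either assay, and neither difference passed. CDC10, in the same zone, had Rpb3 of 43.0 and 42.2 against 44.3 and 40.04 in G1. CSM1, a monopolin gene close to the weak peak at 262676, had Rpb3 of 33.1 and 52.7 in asynchronous WT against 66.4 and 73.7 in fkh1Δfkh2Δ2C (0.69, limma adjusted p = 0.195). Genes on the Crick strand have 1 asynchronous RNA library per strain.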

How the data were processed

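BrdU-labelled DNA, Rpb3-bound DNA and stranded RNA were measured in 10, 8 and 8 libraries. The authors deposited a table per assay of normalized signal for 241409 bins of 50 bp, per the file headers. The sources used here do not name an aligner, a genome build or the normalization, and depth is unknown. Mean BrdU signal per bin was 9.84 to 9.86 in every library, so a change in total BrdU cannot be read from these values. Groups came from strain tags and titles. A pair of RNA columns (2) shares 1 name and was left out.

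BrdU signal was averaged over 1000 bp windows and within 2500 bp of peaks. Genes and their order came from a RefSeq table. Since the files name no build, each gene was moved by a whole number of bins to where stranded RNA fell inside it, with a penalty on changes of the shift between neighbours. All 168 protein-coding genes of chromosome III were placed, with shifts of at most 1 bin. A pseudocount was added to the signal before log2 was taken. For each assay, all groups and the whole genome entered 1 model with a variance trend (limma 3.58.1, R 4.3.3). Adjusted p-values (Benjamini-Hochberg, 2-sided) under 0.05 were called. Pseudocounts were 2.7 (the median) for windows, and 10% of the median for peaks (1.96), Rpb3 genes (4.01) and RNA genes (0.0644). The 10% of genes with the lowest mean were left out, leaving 5401 of 6002. Windows were not filtered. The fits were tested on simulated data.

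All peaks with the genes beside them, the 5 windows that rose or fell most per comparison, and lists of mating-type, pheromone, replication and metabolic genes were named. The peaks, members and lists were chosen with earlier results of these data known. Alternatives changed the pseudocount, filter, centring, peak width, variance trend, samples in the fit and zone borders, added a replicate block, and left out each library. Leaving out both first libraries of the labelled double mutants was added after seeing the data. No sequence is shown, and origins are not named.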

Additional observations from a re-analysis of the deposited data

How the results depend on the processing

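Of the single-peak comparisons, 29 were called, and their alternatives gave 304 values of the same direction still past the threshold, 33 of the same direction no longer past it and none reversed. The 31 not called gave 298 values on the same side, 35 newly past the threshold and 24 reversed. Replicate numbers only share a number, since same-numbered libraries did not deviate together (correlations of -0.241 to 0.247). With the replicate block, windows called were 64 in fkh1Δ, 134 in fkh1Δfkh2Δ, 104 in fkh1Δfkh2Δ2C and 78 for fkh1Δfkh2Δ2C against fkh1Δ. Peaks called were 6, 8, 7 and 4, and genes 0. Leaving out 1 library gave 14 to 70 windows and 4 to 5 peaks in fkh1Δ, 46 to 94 windows for fkh1Δfkh2Δ2C against fkh1Δ, 0 to 66 windows and 0 to 8 peaks between the labelled double mutants, and 0 to 70 genes for asynchronous Rpb3. Without both first libraries of the labelled double mutants, 66 windows and 8 peaks differed between the labelled double mutants, and in a fit of only those groups 0 peaks. Fitting only fkh1Δfkh2Δ2C and WT gave 52 windows. Without a filter, 2 genes were called for asynchronous RNA. With ends of 20 kb, 5 windows were called at the HML end in fkh1Δfkh2Δ and 1 at the HMR end for fkh1Δfkh2Δ2C against fkh1Δ. Reversed on centring were, against WT, 225226 in fkh1Δ (0.12) and 114976 and 166476 in fkh2Δ (-0.0159 and -0.0166). Against fkh1Δ they were 30176 (-0.37), 125626 (-0.32), 132276 (-0.29, now past the threshold), 166476 and 273026 (both -0.11), and between the labelled double mutants 39476 (-0.0227), 132276 (-0.0362), 225226 (-0.0714) and 262676 (-0.17). With means within 5000 bp, 225226 in fkh1Δ was 0.0555 and 30176 against fkh1Δ -0.38. Leaving out 1 library gave 262676 in fkh2Δ -0.351 to 0.0758 (reversed without WT replicate 1). Against fkh1Δ it gave 30176 -0.126 to 0.267 and 125626 -0.175 to 0.419, reversed without fkh1Δ replicate 1 (-0.00255 and -0.00957) and without fkh1Δfkh2Δ2C replicate 1, alone or with the other first library (-0.126 and -0.175). Between the labelled double mutants it gave 225226 -0.133 to 0.495 (reversed without fkh1Δfkh2Δ2C replicate 2) and 273026 -0.0926 to 0.0378 (reversed without fkh1Δfkh2Δ replicate 2, 0.0198, or fkh1Δfkh2Δ2C replicate 1). The cause was not tested. With unknown depth and 2 libraries per group, small differences at low signal could not be resolved.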
